A study of Mus musculus with 11 samples.

Results

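The contractile genes of smooth muscle and myofibroblasts were followed across 11 cell lines grown ex vivo from OvTrpMyc mice. The 10 genes were chosen by name for their role in this contractile program, out of 28284 genes in the count table: Acta2, Tagln, Cnn1, Myh11, Myl9, Actg2, Lmod1, Smtn, Des, and Myocd. All 10 were in the table. The labels give every line the genotype Ovgp1-Trp53-R270H-Myc, in which mutant Trp53 and Myc are placed together in a transgene under the promoter of the oviductal gene Ovgp1, inserted at the Trp53 locus of heterozygous C57BL/6 mice. By the methods of the study, the F361 line no longer expressed the mutant Trp53 copy. The tissue of origin was a right or left ovary (ROV or LOV) for 7 lines, the uterus for 2, a splenic tumor for 1 line, and a tumor of the peritoneum for the last, with 1 polyA RNA library per line and no treatment. The 11 lines came from 7 mice, 4 of which gave 2 lines each, and no wild-type line was included. The labels give no age, and they call all lines ovarian cancer.

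Smooth muscle cells contract with their own isoforms of actin and myosin, which are held in order by calponin, leiomodin, and intermediate filaments of desmin. The transcription factor SRF switches these genes on together with its partner myocardin or with the myocardin-related factors, which respond to the state of the actin cytoskeleton. Fibroblasts that become myofibroblasts, as they do in wounds, in tumor stroma, and on stiff culture plastic, take up part of the same program, with Acta2 as its best known marker. Desmin is shared with skeletal muscle, where it ties neighboring myofibrils together, whereas the smooth muscle myosin Myh11 and the regulator Myocd are not made by skeletal fibers.

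The libraries held 13580525 to 27044598 counts. Levels are given as CPM, counts scaled to a library total of 1000000, so that the 3 counts taken as the limit of detection correspond to 0.111 to 0.221 CPM. Skeletal fiber genes, a list of 38 without Des, accounted for 8.67% to 16.4% of all counts in libraries 1 to 7 as the labels number them, and for 0.176% to 1.36% in libraries 8 to 11. The 10 endothelial genes together stood at 228 to 585 CPM in libraries 1 to 7 and at 6.85 to 233 CPM in 8 to 11, and the sum of 8 pericyte genes ranged over 464 to 944 CPM and over 264 to 1173 CPM. The 7 epithelial genes, which include Epcam, Cdh1, and Pax8, summed to 3.16 to 159 CPM with a median of 11.6. The epithelial markers of the labelled cancer type were thus low in most lines. F319 ROV had the highest sum, with Krt18 at 67.9 CPM. In bulk RNA of this kind, fewer cells of a type and less RNA per cell cannot be told apart.

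The members fell into sets by their level across the lines. Acta2, Tagln, Cnn1, Myl9, Actg2, and Lmod1 were low in most of libraries 1 to 7 and high in F318 ROV, which is library 7, and in libraries 8 to 11. Des ran the other way, Myh11 was highest in F318 ROV and low in libraries 8 to 11, Smtn varied little, and Myocd was near the limit of detection in all lines but F333 uterus.

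**Figure D1:**
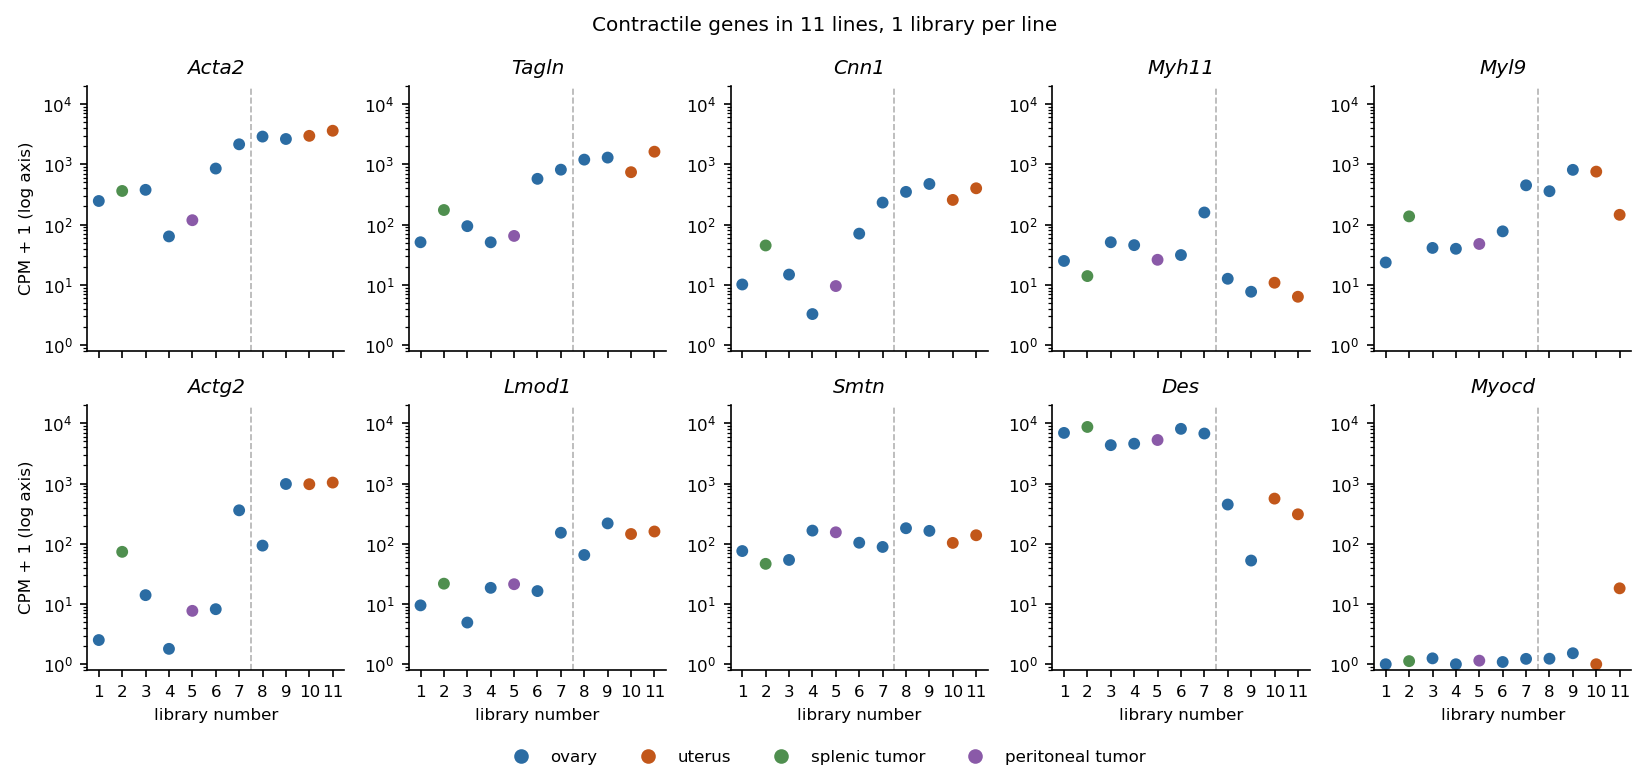
Level of each of the 10 genes in each line, as CPM + 1 on a log axis, against the library number, with the organ of origin in color and a dashed line between libraries 7 and 8. Acta2 spans 62.6 CPM (F326 ROV) to 3614 CPM (F333 uterus), whereas Des is at 4340 CPM or more in libraries 1 to 7 and at 561 CPM or less in 8 to 11.

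Acta2 encodes the alpha actin of smooth muscle, on chromosome 19 of GRCm38 from 34241090 to 34255590 on the minus strand. In libraries 1 to 7 its lowest level was 62.6 CPM in F326 ROV (95% Wilson interval 58.8 to 66.8), its median 360.7 CPM, and its highest 2152 CPM in F318 ROV. Libraries 8 to 11 held 2891 CPM in F339 ROV, 2636 CPM in F318 LOV, 2974 CPM in F319 uterus, and 3614 CPM in F333 uterus. The sets of libraries did not overlap, but the gap between F318 ROV and F318 LOV, the ovaries of 1 mouse, was only 1.22-fold. Expressed per kilobase of exon, which allows levels of different genes to be compared, Acta2 had a median of 388 over all lines, and it was the highest of the 10 genes after Des, at 1222.

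Windows upstream of the RefSeq start (GRCm38.p6) are shown for 4 of the members, 3 that were high together and Des, because the CArG box bound by SRF is the sequence through which this program is known to be driven. RefSeq promoters were at hand for 6 members and not for Tagln, Myh11, Actg2, and Myocd. Each window holds the 250 bases before the start, at chr19:34255374-34255623 (minus strand), chr2:156775214-156775463 (plus), chr9:22099003-22099252 (plus), and chr1:75360042-75360291 (plus), written 5′ to 3′ with CArG boxes and near matches in capitals.
Acta2: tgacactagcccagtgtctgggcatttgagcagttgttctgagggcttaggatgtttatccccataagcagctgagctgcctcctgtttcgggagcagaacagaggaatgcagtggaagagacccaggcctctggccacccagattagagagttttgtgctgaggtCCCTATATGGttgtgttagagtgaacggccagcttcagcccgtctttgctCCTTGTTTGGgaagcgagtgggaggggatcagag
Myl9: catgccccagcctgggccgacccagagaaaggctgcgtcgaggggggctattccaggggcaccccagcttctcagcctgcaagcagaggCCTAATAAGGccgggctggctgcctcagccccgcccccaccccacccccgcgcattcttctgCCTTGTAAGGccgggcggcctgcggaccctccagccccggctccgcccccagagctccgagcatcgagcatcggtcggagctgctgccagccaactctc
Cnn1: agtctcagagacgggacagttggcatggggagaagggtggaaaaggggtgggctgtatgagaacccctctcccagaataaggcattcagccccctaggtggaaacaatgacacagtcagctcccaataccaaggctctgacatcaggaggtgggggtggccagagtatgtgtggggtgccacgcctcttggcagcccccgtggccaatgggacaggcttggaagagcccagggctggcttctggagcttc
Des: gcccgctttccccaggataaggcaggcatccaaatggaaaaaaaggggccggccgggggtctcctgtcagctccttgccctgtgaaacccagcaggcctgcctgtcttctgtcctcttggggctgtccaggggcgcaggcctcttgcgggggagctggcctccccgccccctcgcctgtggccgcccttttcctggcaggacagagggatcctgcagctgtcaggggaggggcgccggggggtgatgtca
The box has 10 bases with a core of 6 that are A or T and reads the same in kind on both strands. Myl9 held 1 exact box, CCTAATAAGG, with its first base 161 before the start, and 1 near match with a single G or C in the core, CCTTGTAAGG. Acta2 held 2 near matches, CCCTATATGG at 84 bases and CCTTGTTTGG at 34 bases before the start. The windows of Cnn1, Lmod1, Smtn, and Des held neither kind. Of all 32851 RefSeq windows of this length, 1.47% held an exact box and 8.59% an exact box or a near match. A match is a run of letters and no measure of binding, and boxes outside these windows were not searched.

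Actg2 encodes the gamma actin of enteric and uterine smooth muscle, on chromosome 6 from 83512905 to 83536265. Its range was the widest of the 9 members detected in all lines, with 0.801 CPM in F326 ROV and 1037 CPM in F333 uterus, a 1294-fold range. In libraries 1 to 7 the median was 7.21 CPM, and only F326 splenic tumor at 72.5 CPM and F318 ROV at 359 CPM stood above 13.0 CPM. F318 LOV, F319 uterus, and F333 uterus lay close together at 982, 974, and 1037 CPM, and F339 ROV stood below them at 92.3 CPM, under the level of F318 ROV.

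Actin isoforms were compared per kilobase of exon. Among Acta2, Actg2, Actb, Actg1, and Actc1, Acta2 made up 8.69% to 45.8% of the sum in libraries 1 to 7 and 33.4% to 46.7% in 8 to 11, and Actg2 0.157% to 10.8% and 2.10% to 18.0%. The cytoplasmic actin Actb held 38.4% to 72.8% in libraries 1 to 7 and 35.0% to 44.1% in 8 to 11. In F318 LOV, F319 uterus, and F333 uterus Acta2 and Actg2 together outweighed Actb and Actg1, as they did in F318 ROV. The skeletal actin Acta1 was not analysed here.

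Tagln encodes transgelin, an actin-binding protein of smooth muscle, on chromosome 9 from 45929619 to 45936058. It stood at 49.8 to 815 CPM in libraries 1 to 7, with a median of 93.2, and at 1197 CPM in F339 ROV, 1295 CPM in F318 LOV, 740 CPM in F319 uterus, and 1622 CPM in F333 uterus. F319 uterus lay below F318 ROV, so the 2 sets overlapped by this 1 library. Exons of Pcsk7 and of Gm48529 lie over Tagln on the other strand, and the strand setting of the counting is not given in the sources used here.

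Cnn1 encodes calponin, which binds actin and slows the myosin motor, on chromosome 9 from 22099216 to 22109630. Its level was 2.27 to 231 CPM in libraries 1 to 7, with a median of 13.8, against 348 CPM in F339 ROV, 472 CPM in F318 LOV, 256 CPM in F319 uterus, and 400 CPM in F333 uterus. The sets did not overlap, and the library nearest to the upper set was again F318 ROV. The calponins Cnn2 and Cnn3, which are not particular to muscle, were also higher in libraries 8 to 11, with log2 fold changes of 2.39 (SE 0.58) and 1.43 (SE 0.41) at adjusted p of 0.00393 and 0.0103.

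Myl9, the regulatory light chain of smooth muscle myosin (chromosome 2, 156775420 to 156781658), ranged from 22.5 CPM in F364 ROV to 810 CPM in F318 LOV. Libraries 1 to 7 had a median of 46.7 CPM and reached 448 CPM in F318 ROV, and libraries 8 to 11 held 357 CPM in F339 ROV, 810 CPM in F318 LOV, 757 CPM in F319 uterus, and 144 CPM in F333 uterus. The sets overlapped, since both F333 uterus and F339 ROV lay below F318 ROV.

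Lmod1, the leiomodin of smooth muscle, which starts new actin filaments, lies on chromosome 1 from 135324807 to 135368065. It stood at 3.92 to 152 CPM in libraries 1 to 7, with a median of 17.6 and only F318 ROV above 20.8 CPM. F339 ROV held 64.1 CPM, F318 LOV 217 CPM, F319 uterus 144 CPM, and F333 uterus 159 CPM. Its paralogs Lmod2 and Lmod3, the leiomodins of striated muscle, had log2 fold changes of -4.83 (SE 0.78, adjusted p = 0.000354) and -4.79 (SE 0.75, adjusted p = 0.000315). The division of the libraries was set from fiber genes, so the values of these paralogs are a description. Per kilobase, Lmod1 made up 0.409% to 9.84% of the 3 leiomodins in libraries 1 to 7 and 39.8% to 97.1% in 8 to 11.

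Smtn encodes smoothelin, a cytoskeletal protein of contractile smooth muscle, on chromosome 11 from 3517523 to 3540612. Its level varied only 3.97-fold, from 45.4 CPM in F326 splenic tumor to 180 CPM in F339 ROV. Libraries 1 to 7 had a median of 87.6 CPM, and libraries 8 to 11 lay within their spread or just above it, at 180, 163, 102, and 138 CPM. Exons of Gm11946 and Gm11947 overlap it on the other strand.

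Myh11, the myosin heavy chain of smooth muscle (chromosome 16, 14194535 to 14291372), did not follow the 6 genes above. Its lowest level in libraries 1 to 7 was 13.0 CPM in F326 splenic tumor, its median 30.2 CPM, and its highest 158 CPM in F318 ROV, whereas libraries 8 to 11 held 11.6 CPM in F339 ROV, 6.68 CPM in F318 LOV, 9.84 CPM in F319 uterus, and 5.34 CPM in F333 uterus. The sets did not overlap, and every library rich in Acta2 other than F318 ROV was poor in Myh11. Per kilobase, Myh11 was 1.55% to 10.4% of the sum of Myh11, Myh9, Myh10, and Myh14 in libraries 1 to 7 and 0.221% to 0.476% in 8 to 11, where the non-muscle myosin Myh9 held 79.5% to 89.1%.

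Des lies on chromosome 1 from 75360329 to 75368579. Libraries 1 to 7 held 4340 to 8703 CPM, with a median of 6768, and libraries 8 to 11 held 447 CPM in F339 ROV, 51.7 CPM in F318 LOV, 561 CPM in F319 uterus, and 308 CPM in F333 uterus. The sets did not overlap, and Des varied 168-fold over all lines. Set against the sum of the 38 fiber genes, Des varied only 3.45-fold, from 22.6 counts per 1000 fiber counts in F333 uterus to 78.1 in F318 ROV. For comparison, the same ratio varied 39.0-fold for Myh11, 272-fold for Smtn, and 3800-fold for Acta2. It varied 8.99-fold for Myh14, which is part of the myosin shares above. Among vessel genes it varied 2.78-fold for Abcc9 and 4.05-fold for Pecam1, but 2511-fold for Cspg4. A narrow ratio was thus not particular to Des. Among type III filaments per kilobase, Des made up 87.0% to 96.8% in libraries 1 to 7 and 2.0% to 20.6% in 8 to 11, where vimentin, the filament of mesenchymal cells (Vim), held 79.3% to 97.9%.

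Myocd, the coactivator myocardin (chromosome 11, 65176561 to 65269989), had 371 counts in F333 uterus, or 17.2 CPM (95% Wilson interval 15.6 to 19.1). The other 10 lines had 0 to 12 counts, and 3 of them, F364 ROV, F326 ROV, and F319 uterus, had none. The line with Myocd had the highest Acta2, Tagln, and Actg2 of all, but its Myl9, Cnn1, and Lmod1 were not the highest, and F318 LOV and F319 uterus stood at 982 and 974 CPM of Actg2 with 12 and 0 counts of Myocd.

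**Figure D2:**
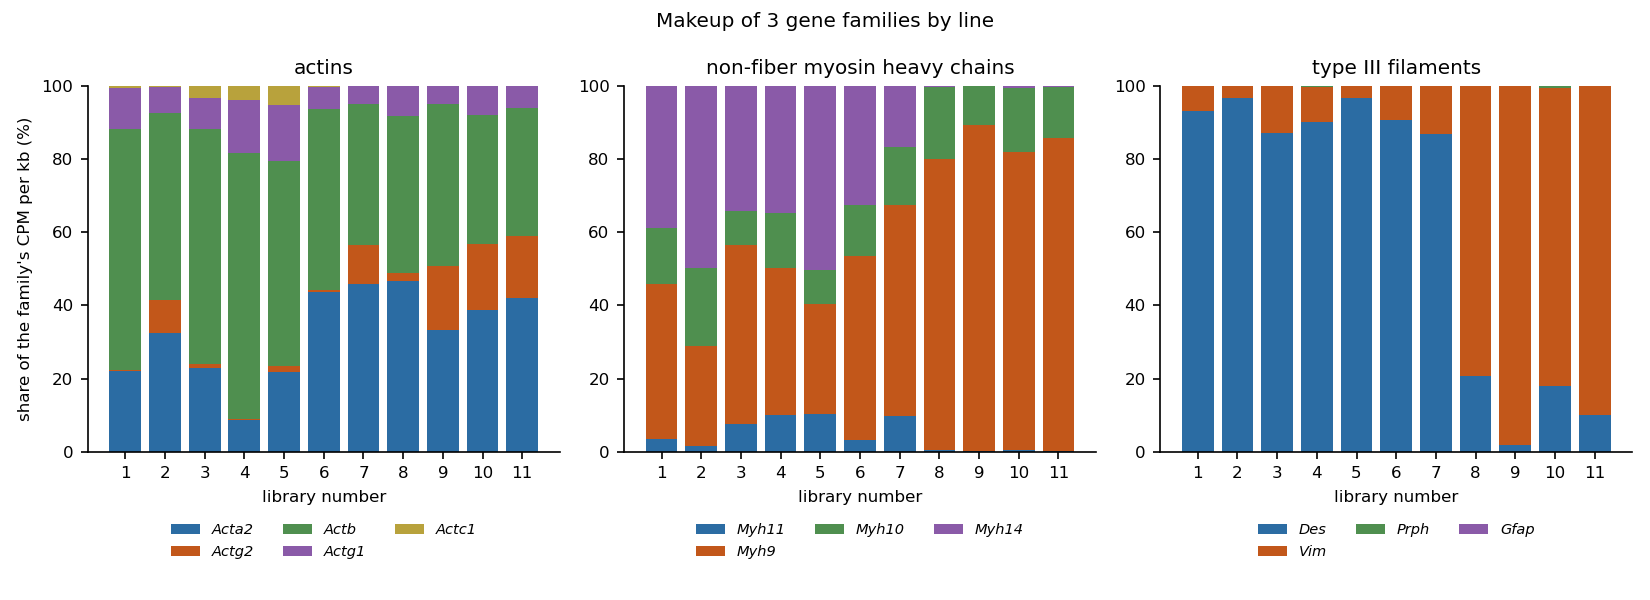
Share of each isoform in the summed CPM per kilobase of exon of its family, in each library by number. The families are actins, myosin heavy chains of smooth muscle and non-muscle type, and type III intermediate filaments. Myh9 and Vim fill most of the myosin and filament bars of libraries 8 to 11, whereas Des holds at least 87.0% of the filaments in libraries 1 to 7 and Myh14 at least 16.7% of the myosins.

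To ask whether the members differed between the 2 sets of libraries, counts were compared over all 11 lines with edgeR's quasi-likelihood test, adjusted over all genes tested. The place of the division was set from the fiber genes in earlier work on these counts, so the values of Des and of the fiber lists are a description. Of 15954 genes tested, 58.5% were called at an adjusted p under 0.05, 28.6% higher and 29.9% lower in libraries 8 to 11. Of the 9 members tested, 6 were called higher, 2 lower, and Smtn was not called, and Myocd was below the filter. Their median log2 fold change was 1.87, against 0.03 over all genes. A call was thus frequent among all genes. Of the 9 members, 2 were higher without any overlap between the sets, Acta2 and Cnn1, against 26.1% of all genes. Myh11 was lower without overlap, as were 17.1% of all genes. Des did not overlap either, but that is a description, since the division was set from fiber genes.

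Actg2 had the largest rise, a log2 fold change of 3.37 (SE 1.31, adjusted p = 0.0427, n = 4 and 7). Cnn1 rose by 2.56 (SE 0.88, adjusted p = 0.0257), Acta2 by 2.11 (SE 0.69, adjusted p = 0.0200), and Tagln by 2.0 (SE 0.71, adjusted p = 0.0290) on the log2 scale. Lmod1 and Myl9 both rose by 1.87, with SE of 0.74 and 0.70 and adjusted p of 0.0454 and 0.0370, close to the threshold. Myh11 fell by 2.86 (SE 0.59, adjusted p = 0.00163), and Des was lower by a log2 fold change of -4.60 (SE 0.61). Smtn had a log2 fold change of 0.20 (SE 0.35, adjusted p = 0.640).

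The calls of the 6 rises depended on which lines entered the fit, while their direction was the same in each fit run. Within the 7 ovary lines (2 against 5), 18.6% of 16610 genes were called higher and 22.1% lower, and none of the 6 members was called: Acta2 had a log2 fold change of 1.66 (SE 0.96, adjusted p = 0.191), Actg2 of 2.66 (SE 1.90, adjusted p = 0.285), Cnn1 of 2.45 (SE 1.27, adjusted p = 0.152), and Myl9 of 2.01 (SE 0.99, adjusted p = 0.135), so that the folds of Cnn1 and Myl9 were close to those over all lines, with a larger SE. Myh11 remained lower there, by a log2 fold change of -3.04 (SE 0.78, adjusted p = 0.0186), as did Des at -4.97 (SE 0.96). With organ of origin as a term, over ovary and uterus lines, 18.9% of 15908 genes were called higher and 22.2% lower, and again 0 of the 6 members. Both uterus lines were among libraries 8 to 11 and both tumor lines among 1 to 7, so the fit over all lines partly compares organs. Of the 6 calls, 1 was left without F318 LOV, 2 without F364 LOV, and 3 without any single one of F364 ROV, F326 ROV, F319 ROV, F361 peritoneal tumor, F326 splenic tumor, F319 uterus, and F333 uterus, whereas Myh11 stayed lower each time. Among all genes 25.6% to 29.1% were called higher with any 1 of the 11 lines left out, near the share over all lines. Without F318 LOV, the log2 fold change of Tagln was 1.99, that of Cnn1 2.44, and that of Actg2 3.26, with adjusted p of 0.0517, 0.0530, and 0.0738, and with any 1 line left out the lowest were 3.14 for Actg2, 1.65 for Lmod1, and 1.57 for Myl9. All 6 calls were kept without F339 ROV, where Actg2 was at 3.75 (SE 1.36, adjusted p = 0.0358), and without F318 ROV, where the rises were largest, at 5.09 for Actg2 (SE 1.17, adjusted p = 0.00320) and 2.82 for Acta2 (SE 0.56, adjusted p = 0.00133).

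Mice F318 and F319 had a line in each set of libraries, so the mouse could be added as a block, a fit chosen after the data were seen. It called 5.45% of 15954 genes higher and 13.5% lower, and of the 9 members tested only Des, at a log2 fold change of -5.67 (SE 0.94). Myh11 was at -3.31 (SE 0.95, adjusted p = 0.0544) and was not called. None of the 6 members was called. The log2 fold changes of Acta2 and Tagln were 0.82 (SE 0.83, adjusted p = 0.503) and 0.29 (SE 0.63, adjusted p = 0.767), that of Cnn1 was 1.23 (SE 1.08, adjusted p = 0.446), and those of Actg2, Myl9, and Lmod1 were 4.01 (SE 2.62), 1.86 (SE 0.83), and 1.64 (SE 0.69), with adjusted p of 0.305, 0.154, and 0.135. The difference in this fit rests on the 4 lines of these mice, and in F319 it is also one between ovary and uterus.

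**Figure D3:**
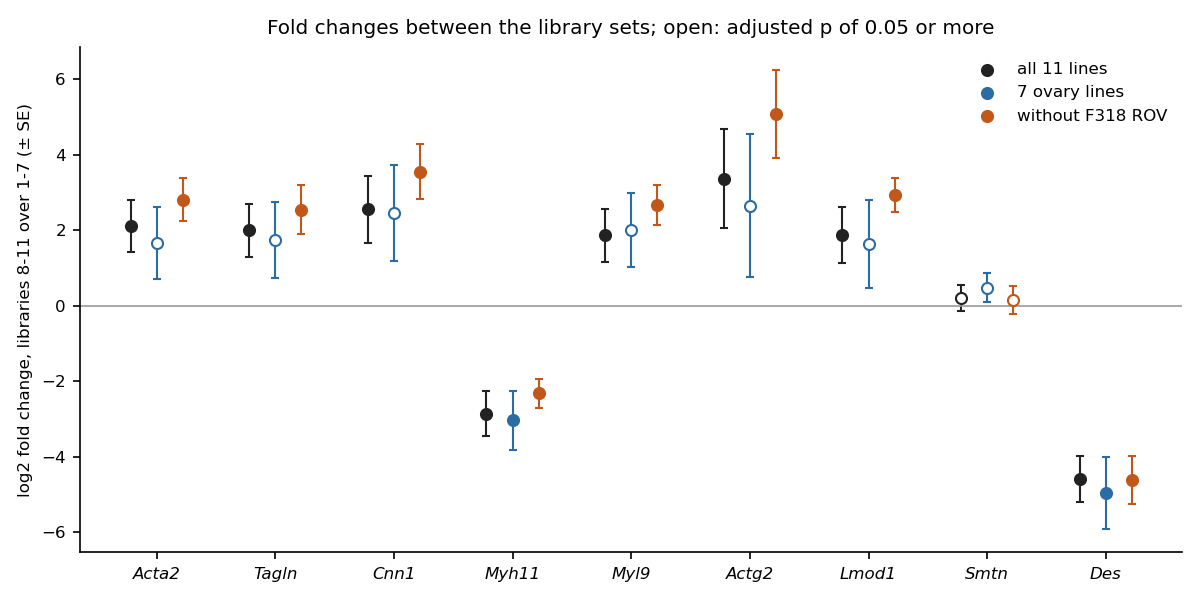
Log2 fold change of 9 members between libraries 8 to 11 and 1 to 7 with its SE, from edgeR fits over all 11 lines, the 7 ovary lines, and all lines but F318 ROV, where filled points have an adjusted p under 0.05. Des and Myh11 are filled in all 3 fits, the 6 raised members are open in the ovary lines, and Smtn is open throughout.

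The rest of the contractile machinery had calls in both directions, as had all genes, with 28.6% higher and 29.9% lower. Of 25 other genes of smooth muscle contraction, 9 were called higher, 11 lower, and 5 not, with a median log2 fold change of 1.09. Within the ovary lines 4 were called higher and 9 lower, against 18.6% and 22.1% of all genes, and the median was -0.32. Those higher included caldesmon (Cald1, log2 fold change 2.23, adjusted p = 0.00144), filamin A (Flna, 1.94, adjusted p = 0.00884), and Kcnmb1 (3.27, adjusted p = 0.00765), a subunit of a potassium channel that was low throughout and overlapped between the sets, with 0.739 CPM in F319 uterus. The pore-forming subunit of the same channel, Kcnma1, was lower (-2.70, adjusted p = 0.00681), and the myosin light chain kinase Mylk was at 1.17 (adjusted p = 0.216). Those lower also included synemin (Synm, -4.95, adjusted p = 0.000101) and synaptopodin 2 (Synpo2, -4.45, adjusted p = 0.000264), which skeletal fibers also make, and the tropomyosins Tpm1 (-2.22, adjusted p = 0.00162) and Tpm2 (-2.82, adjusted p = 0.000179), whose genes also encode skeletal forms. For genes shared with fibers these values are a description, since the division was set from fiber genes.

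Among 13 regulators tested, 6 were higher, 2 lower, and 5 not called, where 28.6% of all genes were called higher and 29.9% lower. Within the ovary lines 6 were higher, 1 lower, and 6 not called, against 18.6% and 22.1% of all genes. Mkl1, the myocardin-related factor that answers to actin, rose by 1.43 on the log2 scale (SE 0.20, adjusted p = 0.000163), and its 7 lower libraries reached 76.3 CPM at most while the 4 upper ones began at 129 CPM. Csrp2, a partner of SRF in smooth muscle, rose by 3.78 (SE 0.38, adjusted p = 3.67e-05), whereas the other myocardin-related factor, Mkl2, had a log2 fold change of -0.39 (SE 0.20, adjusted p = 0.105) and Srf itself of -0.33 (SE 0.21, adjusted p = 0.209). Klf4, a repressor of the smooth muscle program, rose by 1.35 (SE 0.26, adjusted p = 0.00105), and Foxo4 fell by 3.62 (SE 0.33, adjusted p = 3.25e-05). Of 15 stress fiber targets of SRF and its partners, 8 were higher, 2 lower, and 5 not called, with a median log2 fold change of 1.20. Within the ovary lines 4 were higher and 1 lower, against 18.6% and 22.1% of all genes.

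Of 15 myofibroblast and fibroblast genes, 6 were called higher, 1 lower (Fap), and 8 not, against 28.6% higher and 29.9% lower of all genes. Within the ovary lines 2 were higher and 0 lower, against 18.6% and 22.1% of all genes. The median log2 fold change was 2.05 over all lines and 2.20 within the ovary lines. Fibronectin (Fn1) rose by 2.60 (SE 0.63, adjusted p = 0.00413) and the collagen Col1a1 by 2.38 (SE 0.93, adjusted p = 0.0424), and periostin (Postn) was at 2.82 (SE 1.19, adjusted p = 0.0588). As a sum, this list stood at 845 to 13370 CPM in libraries 1 to 7, highest in F318 ROV, and at 20910 to 36390 CPM in 8 to 11, so the line of libraries 1 to 7 with the most contractile RNA also had the most fibroblast RNA. Whether the 2 are made by the same cells was not tested.

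The marker lists of fibers and vessels are given beside Des and Myh11. Fiber genes were lower in libraries 8 to 11 by the way the libraries were divided, with a median of -4.49 on the log2 scale over the 37 tested and of -4.44 over the 10 genes of the fiber membrane and filament system listed beside Des. Of 10 endothelial genes, 8 were lower, 0 higher, and 2 not called (Cdh5 and Emcn, both high in F339 ROV at 61.9 and 154 CPM), with a median of -4.48. Of 8 pericyte genes, 4 were lower, 3 not called, and 1 higher (Pdgfrb, at 1.81). Those not called were Cspg4 (2.99), Mcam (0.43), and Notch3 (0.24), so the list did not move together. Rgs5, among those lower, was at least 155 CPM in each of libraries 1 to 7 and at most 42.2 CPM in 8 to 11. Pecam1, the defining endothelial marker, was at least 37.6 CPM in the former and at most 7.84 CPM in the latter. The part of vessel cells in the level of Myh11, and of fibers in the levels of the other members, was not tested.

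Within libraries 1 to 7, which all held fiber RNA, each member was set against the share of counts on the fiber list, as log2(CPM + 1). Of 15954 genes, 17.6% had an exact permutation p under 0.05 and 0% an adjusted p under 0.05, and of the 9 members 5 had an unadjusted p of Pearson's r under 0.05 and none an adjusted one. Cnn1 had a Pearson r of -0.897 (exact permutation p = 0.00337, adjusted p = 0.127, n = 7) and a Spearman rho of -0.929 (exact permutation p = 0.00675). For Acta2, r was -0.854 (exact permutation p = 0.00655, adjusted p = 0.152) and rho -0.857 (exact permutation p = 0.0238), and the r of Tagln, Myl9, and Actg2 were -0.858, -0.944, and -0.881. The rho of Myl9 was -0.75 (exact permutation p = 0.0663), so by rank it did not pass. Des had an r of -0.459 (exact permutation p = 0.316), Myh11 of -0.632 (exact permutation p = 0.160), and Smtn of 0.249 (exact permutation p = 0.636).

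Some of these relations leaned on few lines. Without F326 splenic tumor and F318 ROV, the 2 farthest from the median share, r was -0.848 for Acta2 (exact permutation p = 0.0583, n = 5), -0.933 for Tagln (exact permutation p = 0.0583), and -0.860 for Cnn1 (exact permutation p = 0.0917), but -0.617 for Myl9 (exact permutation p = 0.300) and -0.301 for Actg2 (exact permutation p = 0.733). The r of Lmod1 went from -0.83 to 0.0803 (exact permutation p = 0.0563 and 0.925). Without F326 splenic tumor alone the r of Lmod1 and Actg2 were -0.832 and -0.907 (exact permutation p = 0.108 and 0.0639, n = 6), and without F318 ROV alone -0.22 and -0.696 (exact permutation p = 0.736 and 0.125). Without F318 ROV the r of Des was -0.795 (exact permutation p = 0.0750) and that of Acta2 -0.735 (exact permutation p = 0.110). Fiber and contractile counts share 1 total, so a larger share of one leaves less for the other. With only the listed fiber genes taken out of the total, r was -0.847 for Acta2 and -0.891 for Cnn1. Des, which fibers also make, is not on that list and stayed in the total. The step thus took out only part of the fiber RNA and could not remove the effect of a shared total. The part of the shared total in these relations was not tested.

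**Figure D4:**
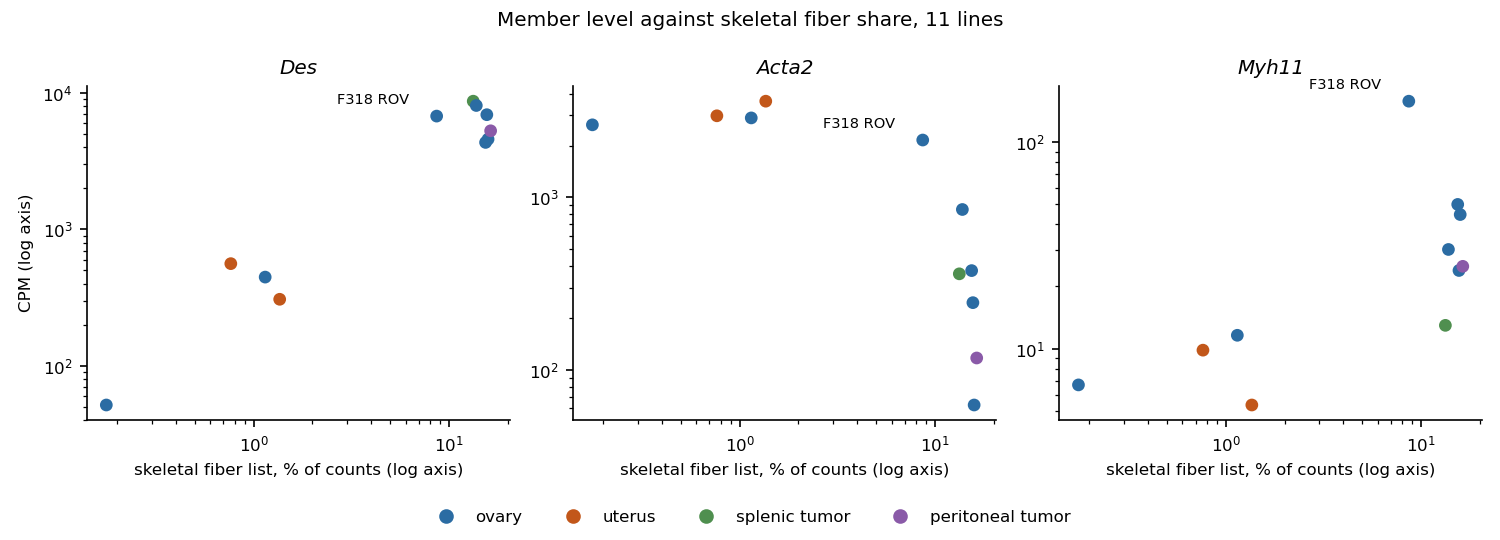
Level of Des, Acta2, and Myh11 in CPM against the share of counts on 38 skeletal fiber genes, both on log axes, with 1 point per line colored by organ of origin. Des is high in all lines with at least 8.67% fiber counts, Acta2 is at 2152 CPM or more in the 5 lines with the lowest share, and F318 ROV has the highest Myh11, 158 CPM.

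The 4 mice that gave 2 lines each set the members side by side within a mouse, without a test. F318 ROV and F318 LOV differed 49.2-fold in the summed fiber genes and 131-fold in Des, both higher in the right ovary, and 23.6-fold in Myh11, also higher there, whereas Acta2 differed 1.22-fold, Lmod1 1.43-fold, and Actg2 2.74-fold, all higher in the left. F319 ROV and F319 uterus differed 18.1-fold in fiber genes and 14.4-fold in Des, and Actg2 was 135-fold, Myl9 9.92-fold, and Acta2 3.49-fold higher in the uterus line, with Smtn at 103 and 102 CPM.

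The other 2 pairs lay within libraries 1 to 7, where the fiber sum was nearly equal. F326 splenic tumor and F326 ROV differed only 1.19-fold in fiber genes, but the splenic tumor line held 90.5-fold more Actg2, 19.4-fold more Cnn1, and 5.76-fold more Acta2, and the ovary line 3.44-fold more Myh11 and 3.62-fold more Smtn. F364 LOV and F364 ROV differed 1.01-fold in fiber genes, and Acta2 was 1.53-fold and Actg2 8.57-fold higher in the left ovary, whereas Lmod1 was 2.17-fold, Des 1.60-fold, and Smtn 1.41-fold higher in the right.

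Organ of origin is the only condition in the labels. For uterus (2 lines) against ovary (7 lines), edgeR called 0% of 17446 genes, or 0 genes, at an adjusted p under 0.05, while 2308 genes (13.2%) had an unadjusted p under 0.05 and DESeq2 called 1293 of 27829 genes (4.65%). None of the 10 members was called by edgeR, and their median log2 fold change was 1.03, against -0.05 over all genes. Acta2 stood at 2974 CPM in F319 uterus, 3614 CPM in F333 uterus, and 62.6 to 2891 CPM with a median of 851 over ovary lines, and it was the only member whose organs did not overlap, which held for 5.04% of genes in that direction. Its log2 fold change was 1.30 (SE 0.99, adjusted p = 0.459).

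The largest differences of members here were those of Myocd, Des, and Myh11, with log2 fold changes of 5.42 (SE 1.47), -3.65 (SE 1.70), and -2.84 (SE 1.19) in edgeR, each at an adjusted p of 0.359. The value for Myocd came from F333 uterus, since F319 uterus had 0 counts. DESeq2 called Myocd higher (adjusted p = 0.0312), as it did 0.593% of genes, and Des and Myh11 lower (adjusted p = 0.0402 and 0.0494), as it did 4.05%. The DESeq2 shares are over all 27829 genes with a p-value, including any left without an adjusted p, so they can be too low. Within libraries 8 to 11, where 2 uterus and 2 ovary lines can be compared, Myh11 had a log2 fold change of -0.28 (SE 0.56) and Des of 0.80 (SE 0.96), and no member had an adjusted p below 1. Both uterus lines are in libraries 8 to 11, so only these 4 lines compare organs within a set of libraries, as the 7 ovary lines compare the sets within an organ.

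To see which genes had the pattern most like Acta2, log2(CPM + 1) was centered on the mean of each library set and correlated over the 11 lines, for 10045 genes with a mean of at least 10 CPM. The 5 highest r were those of Cnn2 (0.963), Pdia5 (0.960), Tmem63a (0.959), Basp1 (0.957), and Gm3788 (0.956). Among the members, Cnn1 had an r of 0.947 with Acta2 and ranked 10, Tagln 0.893 with rank 63, Actg2 0.711, and Myl9 0.612. Lmod1 was at 0.47 with rank 3584, and Myh11, Des, and Smtn were at 0.46, 0.217, and -0.427. For Des the 5 highest were Cacng1 (0.965), Myh1 (0.937), Chmp1b (0.933), Rpain (0.932), and Prkcq (0.931). Of these, at least Cacng1, a calcium channel subunit, and Myh1, a fast myosin, belong to skeletal fibers. Prkcq ranged from 0.960 to 244 CPM over the lines. The other members had an r with Des of 0.217 or less. These correlations are descriptions over lines that share mice and library totals.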

How the data were processed

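The authors prepared directional polyA libraries, mapped paired-end reads to GRCm38 (mm10) using STAR, took out PCR duplicates by SAMtools RmDup, and deposited raw counts per gene from featureCounts, with 1 column per line. Tool versions and the strand setting are not given in the sources used here. Gene positions and exon lengths came from GENCODE M21, which is not the annotation release of the counts. No member shared a 150-base stretch of transcript with another gene.

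The members, the gene lists, and the division of the libraries after number 7 were chosen with earlier results of these data known. Counts were tested with edgeR 4.0.16 in R 4.3.3 (quasi-likelihood test, TMM, filterByExpr, Benjamini-Hochberg adjustment over all genes, adjusted p under 0.05), with DESeq2 1.42.0 as an alternative. Except in the fit with the mouse as a block, lines of the same mouse were treated as independent, so p-values measure only the spread between lines. The fits were tested on simulated counts with the same dispersion for every gene and with independent lines. That setting is simpler than these data, so it checks only that the code runs as meant. The fiber share was related to each gene by exact two-sided permutation (5040 orders) and adjusted over all genes, in place of the 10 members as first planned. Wilson intervals cover counting error only. All members are named. Of the lists, genes are named where they are paralogs of members, pass the adjusted p, or are the highest or lowest. The markers Rgs5, Pecam1, Emcn, Cspg4, Mcam, and Notch3, with Mylk, Srf, Mkl2, Prph, Postn, and Cdh5, were named after their values were seen. Alternatives covered normalization, low-count filter, fiber genes, organ, library set, pseudocount, each line left out, and, added after the data were seen, the mouse as a block, taken from the mouse numbers in the labels. Acta1 was not analysed here.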

Additional observations from a re-analysis of the deposited data

Results flagged for a closer look

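In a group of 4 lines, 2 values stood apart by the gap to the nearest other line, divided by the whole range of log2(CPM + 1), above Dixon's critical value of 0.829. F339 ROV was the lowest of libraries 8 to 11 in Actg2, at 92.3 CPM, with a ratio of 0.974. F333 uterus was the highest of them in Myocd, at 17.2 CPM, with a ratio of 0.855. No value stood apart among the 7 ovary lines or among libraries 1 to 7. These were 2 of 30 groups examined, and chance alone flags about 1 in 20.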

How the results depend on the processing

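The limits of these data are the single library per line, the 4 mice with lines in more than 1 place, and the overlap of organ with library number. Under 18 alternatives, Des was called lower in libraries 8 to 11 each time, which is a description, since the division was set from fiber genes. Smtn stayed uncalled in all of them, and Myh11 was called lower in 17. The exception was the mouse as a replicate block, added after the data were seen because mice F318 and F319 had a line in each set: it called 3028 genes, 0 members higher and 1 lower, with Myh11 at an adjusted p of 0.0544. Of the 6 members called higher over all 11 lines, the number called was 0 with organ of origin as a term and 0 in ovary lines only, and 1 (without F318 LOV) to 6 (without F318 ROV or F339 ROV) with a line left out, with no change of direction and with adjusted p up to 0.285 in these fits. With organ as a term the log2 fold change was 2.0 for Myl9 and 1.62 for Lmod1, against 1.87 for each over all lines. With DESeq2 and unfiltered counts all 6 were called, and without the low-count filter Myocd was called as well (log2 fold change 4.99, adjusted p = 0.00847). For uterus against ovary, DESeq2 called 1293 genes, with 1 member higher and 2 lower, and edgeR called 2 genes without the low-count filter and 0 to 1 with a line left out. Within libraries 8 to 11 the direction turned for Tagln (-0.028), Cnn1 (-0.29), Myl9 (-0.43), and Des (0.80), and with library set as a term for Cnn1 (-0.23), Myl9 (-0.37), and Des (0.85). With a line left out, the same comparison gave -0.73 to 1.46 for Myl9, -0.44 to 0.19 for Smtn, and -5.01 to 6.44 for Myocd, the lowest of these without F333 uterus. The r with the fiber share turned to 0.0803 for Lmod1 without the 2 farthest libraries, and ranged from -0.871 to 0.532 for Myh11 with a line left out, the highest without F318 ROV. The cause of these changes was not tested. For uterus against ovary only mouse F319 had a line from each organ, so a fit with the mouse as a replicate block, also added after the data were seen, compares that pair: edgeR called 0 genes (1501 at an unadjusted p under 0.05), and Myocd turned to -4.04, with 0 counts in F319 uterus.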

Other observations

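Between libraries 8 to 11 and 1 to 7, where 28.6% of all genes were called higher and 29.9% lower, 6 of the 12 paralogs of the members tested were higher, 4 lower, and 2 not called. Within the ovary lines 4 were higher, 4 lower, and 4 not called, against 18.6% and 22.1% of all genes. The 6 higher included Tagln2 (log2 fold change 2.05, adjusted p = 0.00509) and Nes (1.62, adjusted p = 0.00521), and the 4 lower included the striated forms Smtnl1 (-4.91, adjusted p = 0.000154) and Smtnl2 (-5.59, adjusted p = 0.000189). The values of the striated forms are a description, since the division was set from fiber genes. Those not called were Prph (0.23, adjusted p = 0.850) and Mkl2 (-0.39, adjusted p = 0.105). Of 3 actin isoforms, Actb (1.48, adjusted p = 0.00419) and Actg1 (1.65, adjusted p = 0.000229) were higher and the cardiac actin Actc1 lower (-4.23, adjusted p = 0.0172). Of the non-muscle myosins, Myh9 (2.20, adjusted p = 0.00177) and Myh10 (1.31, adjusted p = 0.0250) were higher and Myh14 lower (-5.68, adjusted p = 4.54e-05). The other light chains had 1 higher (Myl6, 0.64, adjusted p = 0.0110), 3 lower, and 2 not called.

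Cardiac genes were tested for 4 of 10 members of their list, of which 2 were lower and Tnnt2, troponin T of the heart, was higher (1.90, adjusted p = 0.0387), with 143 CPM in F333 uterus, the line with Myocd, but the lowest level of all lines, 2.33 CPM, in F319 uterus, so that the sets overlapped. Of 4 epithelial genes tested, 1 was lower (Krt18, which stood at 67.9 CPM in F319 ROV but had a median of only 1.52 CPM in libraries 1 to 7) and 3 not called, and within the ovary lines 0 were called.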
